A study of Mus musculus with 32 samples.

Results

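The transcripts of 9 genes that mark microglia or serve the Csf1 receptor axis were measured by total RNA sequencing in BV-2 cells, an immortalised mouse microglial line. The genes were Csf1r, Csf1, Cx3cr1, P2ry12, P2ry6, Aif1, Spi1, Runx1 and Tmem119, taken by symbol from the 45706 genes of the deposited table, where each symbol names 1 gene. The cells carried a mimic, a double-stranded RNA that delivers a mature microRNA, of miR-146a, miR-29a or miR-7a, or they carried a scramble with no intended target. Each mimic was combined with vehicle (VEH) or with lipopolysaccharide (LPS, a component of the bacterial outer membrane) at 10 ng/ml, with 24 h of exposure. This gave 8 groups of 4 libraries: VEH_scramble, VEH_miR-7a, VEH_miR-29a, VEH_miR-146a, LPS_scramble, LPS_miR-7a, LPS_miR-29a and LPS_miR-146a. All groups share the line and the transfection, and no untransfected cells were analysed here. The labels number 4 replicates per group, which the study calls independent experiments of the same line, so the spread is that between cultures and libraries of 1 line and not between animals. The sources differ on whether LPS came before or after transfection. Levels are given as CPM, the usual count scaled to a common library total, after TMM scaling, a correction for differences in RNA composition.

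Csf1r encodes the receptor tyrosine kinase through which Csf1 and Il34 sustain microglia and other macrophages, and Csf1 encodes one of these ligands. Spi1 encodes PU.1, an ETS-family transcription factor that specifies the myeloid lineage, and Runx1 encodes a transcription factor of blood cell development that cooperates with it. Cx3cr1 is the receptor of the neuronal chemokine Cx3cl1, P2ry12 is an ADP receptor that guides microglial processes, and P2ry6 is a UDP receptor linked to phagocytosis. Aif1 encodes the actin-binding protein Iba1, and Tmem119 encodes a membrane protein used to tell resident microglia from other macrophages.

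The mature microRNAs are shown because their seeds, bases 2 to 8 in capitals, decide which transcripts they pair with. The sequences are RefSeq's for GRCm38.p6, 5′ to 3′, and stand for the natural microRNAs that the mimics are named after.
miR-7a-5p: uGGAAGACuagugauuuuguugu
miR-29a-3p: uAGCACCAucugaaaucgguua
miR-146a-5p: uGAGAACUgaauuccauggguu
The 3 seeds differ. miR-7a-5p is encoded at chr7:78888295-78888317 on the plus strand and again at chr13:58392841-58392863 on the minus strand. miR-29a-3p lies at chr6:31062673-31062694 and miR-146a-5p at chr11:43374435-43374456, both on the minus strand.

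Complete matches to these seeds were few in the annotated 3′ UTRs of the 9 genes (GENCODE M21). The match of miR-7a, GTCTTCC, was found in Csf1 alone, which has 4 transcripts with a 3′ UTR. It lay at base 131 of a 3′ UTR of 259 bases. The longer Csf1 3′ UTRs, which reach 2111 bases, did not hold it. A site repeated in a shorter 3′ UTR of the same gene was counted once, so the transcripts with a site were not counted. Over all annotated genes, 14.3% of 21151 genes with a 3′ UTR hold this match. The match of miR-29a, TGGTGCT, occurred once, in a Runx1 transcript with a 3′ UTR of 524 bases, against 15.7% of all genes. The match of miR-146a, AGTTCTC, occurred once in Runx1 and once in Csf1r, against 13.3% of all genes. The sites in Csf1 and Runx1 are shown, with the match in capitals, so that the levels of both genes can be set beside them, and that in Csf1r is not printed.
Csf1 with miR-7a: gtgggacggttGTCTTCCttgatctggac
Runx1 with miR-29a: gcctaccttggTGGTGCTatgtgctggtc
Runx1 with miR-146a: tcagaaaatgcAGTTCTCcagcctccagc
The other 6 genes, Cx3cr1, P2ry12, P2ry6, Aif1, Spi1 and Tmem119, held none of the 3 heptamers in this window. A match is a description of letters and no measurement of binding.

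The deposited counts had lost their decimal marks and were used after these had been restored. Of the 9 genes' values, those of Csf1r, Cx3cr1 and P2ry6 were whole throughout, and the others had marks restored in 1 value (Tmem119) to 20 values (Runx1). Library totals, rounded, ran from 1208000 to 9751000 counts under vehicle and from 2726000 to 20739000 counts under LPS. In VEH_miR-7a replicates 2, 3 and 4 small structural RNA genes held 38.4%, 35.0% and 37.0% of the counts, against 2.57% to 18.8% in the other 29 libraries, so the main results that use this group are also given without these 3 libraries. Such a fit leaves 1 library in the group, which is assumed to vary like the libraries of the other groups, so its p-value says little about the change where the group is compared with a single other group.

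The labels call the cells glioblastoma. All 10 listed markers of microglia and macrophages (Ptprc, Cd68, Itgam, Itgb2, Cd14, Fcgr3, Lyz2, Tyrobp, Laptm5 and Ctss) had a median of at least 1 CPM. Their summed level was 4424 to 7953 CPM under vehicle and 3166 to 5995 CPM under LPS. Of the markers of astrocytes, neurons and fibroblasts none reached that median, with summed levels of at most 2.64, 3.13 and 2.38 CPM in any library. The oligodendrocyte marker Mbp, the T cell marker Cd4 and the macrophage markers Ms4a7 and Mrc1 passed 1 CPM in the median. The library is bulk RNA, so a lower level can come from fewer cells that express the gene or from less RNA per cell, and these cannot be told apart.

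Per kilobase of exon, which allows levels of different genes to be compared, Csf1r and Csf1 led the 9 genes with means of 110 ± 35.5 and 83.1 ± 20.4 CPM per kb over all 32 libraries (SD). Spi1 followed with 47.5 ± 15.2. Aif1 and Runx1 lay far lower, at 7.40 ± 3.59 and 5.54 ± 1.13 CPM per kb. The purinergic receptors P2ry6 and P2ry12 had means of 2.55 ± 1.09 and 2.12 ± 0.961, Tmem119 had 1.25 ± 0.815, and Cx3cr1 had 0.179 ± 0.258 CPM per kb. Receptor, ligand and PU.1 transcripts thus stood far above those of the surface genes used to recognise resident microglia.

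Csf1r lies on chromosome 18 at 61100598 to 61132149, plus strand (GRCm38, ENSMUSG00000024621), and overlaps Hmgxb3 on the other strand (23.4 to 65.8 CPM). Csf1 lies on chromosome 3 at 107741048 to 107760469, minus strand (ENSMUSG00000014599), with no other annotated gene on it. Spi1 is on chromosome 2 at 91082390 to 91115756 and Runx1 on chromosome 16 at 92601466 to 92826149. P2ry6 is on chromosome 7 at 100937630 to 100974649, Aif1 on chromosome 17 at 35170991 to 35176068 and Tmem119 on chromosome 5 at 113793729 to 113800516. P2ry12, on chromosome 3 at 59216272 to 59262871, overlaps Med12l on the opposite strand, which had 13.9 to 65.9 CPM against 0.792 to 12.5 for P2ry12. The annotated span of Cx3cr1, chromosome 9 from 119901616 to 120069879, holds several other genes. Whether the counting used strand is not given in the sources used here, so the values of P2ry12 and Cx3cr1 are uncertain.

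Csf1r, which had the highest mean of the 9 genes over all 32 libraries though not in every group, fell under LPS. In VEH_scramble the 4 libraries held 862, 1044, 768 and 857 CPM of Csf1r, a mean of 883 ± 116 (SD, n = 4). In LPS_scramble they held 554, 618, 551 and 548 CPM, a mean of 567 ± 33.5. Every LPS_scramble library lay below every VEH_scramble library. The log2 fold change was -0.62 (SE 0.14, adjusted p = 0.0123 by limma voom with Benjamini-Hochberg adjustment over all genes tested), a level 1.54 times lower under LPS.

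With the miR-29a mimic the fall was steeper in value. VEH_miR-29a held 834, 795, 701 and 678 CPM of Csf1r and LPS_miR-29a held 384, 404, 315 and 287 CPM. These groups did not overlap, and the fold change was -1.13 on the log2 scale (SE 0.14, adjusted p = 0.000203), 2.18 times lower under LPS. The difference from the change with scramble, tested as an interaction, was -0.49 (95% confidence interval -0.89 to -0.09, adjusted p = 0.71) and did not pass.

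With the other mimics Csf1r was also lower under LPS, and whether it passed the threshold depended on the fit. VEH_miR-7a held 749, 467, 582 and 592 CPM and LPS_miR-7a held 335, 472, 392 and 458 CPM, ranges that overlapped. The log2 fold change was -0.56 (SE 0.16, adjusted p = 0.0621), and -0.86 (adjusted p = 0.274) without VEH_miR-7a replicates 2, 3 and 4. VEH_miR-146a held 878, 932, 837 and 938 CPM and LPS_miR-146a held 629, 713, 738 and 443 CPM. All LPS_miR-146a libraries lay below the VEH_miR-146a libraries, with a fold change of -0.54 (SE 0.15, adjusted p = 0.064). With miR-7a and with miR-146a the difference passed under DESeq2 (adjusted p = 0.0273 and 0.0286), with no filter, in 1 fit over all 32 libraries, with the replicate block and at a certainty of 0.99 for restored values, and it did not pass under edgeR (adjusted p = 0.107 and 0.113).

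**Figure D1:**
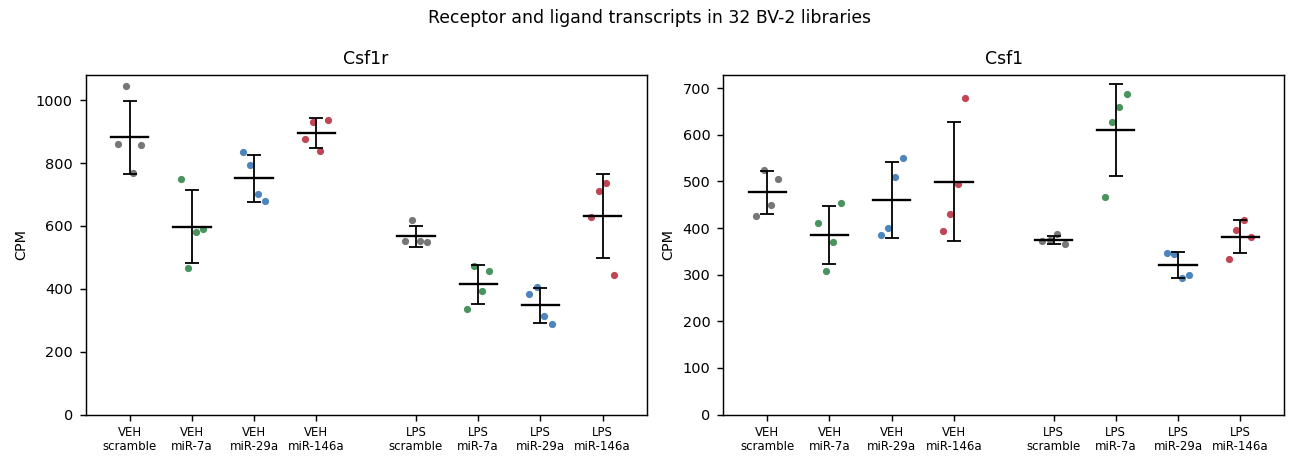
Level of Csf1r (left) and Csf1 (right) in CPM for each of the 4 libraries (points) of the 8 groups on the horizontal axis, with the mean (line) and the SD (bar). Csf1r means are 348 to 631 CPM in the LPS groups and 598 to 896 CPM in the VEH groups, and the Csf1 mean of LPS_miR-7a (610 CPM) is the highest of the 8.

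Over the mean of the 4 mimics, with all 32 libraries in 1 fit, 6 of the 8 genes tested were called, 4 lower and 2 higher under LPS. Called means that the adjusted p was below 0.05 and that the log2 fold change was larger than 0.3 in either direction. Of all 11567 genes tested, 33.8% were called, 1965 lower and 1948 higher. Csf1r (-0.70, SE 0.07, adjusted p = 4.29e-09), P2ry6 (-0.88, SE 0.16, adjusted p = 3.85e-05), Spi1 (-0.61, SE 0.11, adjusted p = 3.54e-05) and Runx1 (-0.36, SE 0.08, adjusted p = 0.000478) fell. Tmem119 rose (1.48, SE 0.25, adjusted p = 1.79e-05). Aif1 was called at the edge of the threshold (0.49, SE 0.20, adjusted p = 0.0499) and lost the call when any of 18 libraries was left out (adjusted p from 0.0167 to 0.134 over 32 fits), as it did without VEH_miR-7a replicates 2, 3 and 4. Csf1 (-0.14, 95% confidence interval -0.29 to 0.01, adjusted p = 0.124) and P2ry12 (-0.21, 95% confidence interval -0.63 to 0.22, adjusted p = 0.453) did not pass.

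Depth and the share of structural RNA (2.57% to 5.80% under LPS, 3.80% to 38.4% under vehicle) differed in range between the conditions but overlapped, and their part in the changes was not tested. The fall of Csf1r was as large with structural RNA genes left out of the library sizes (-0.71, adjusted p = 2.13e-09) and without VEH_miR-7a replicates 2, 3 and 4 (-0.78, adjusted p = 2.14e-08). P2ry6, Spi1, Runx1 and Tmem119 also stayed called without these 3 libraries.

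**Figure D2:**
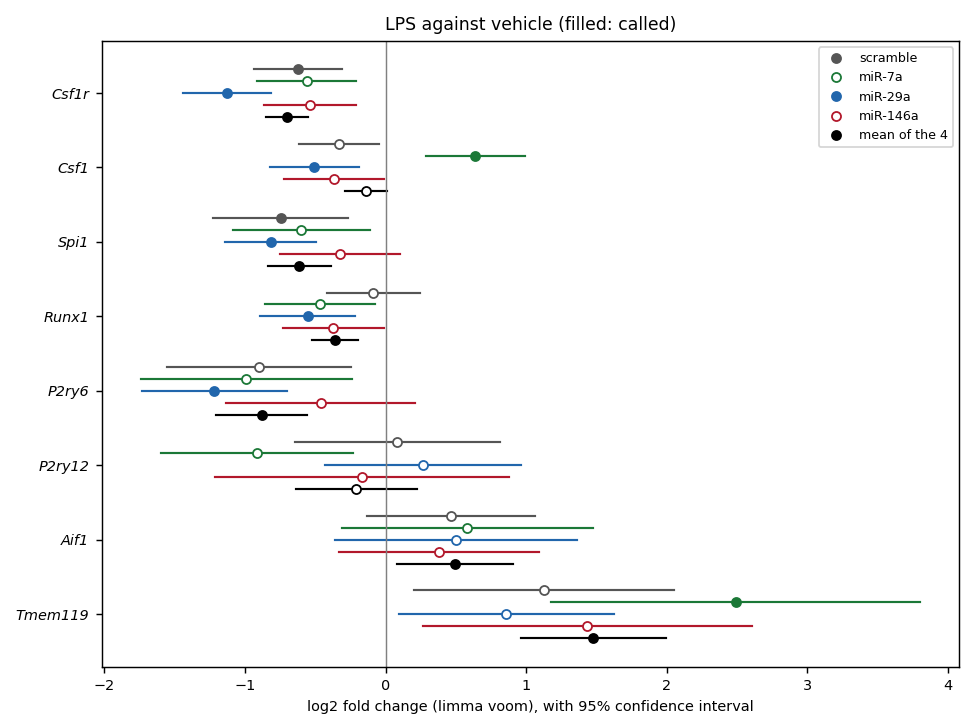
Log2 fold change of LPS against vehicle for 8 genes (vertical axis) with each mimic and over the mean of the 4, with 95% confidence intervals, filled where called. Csf1r, Spi1 and P2ry6 lie left of 0 with every mimic and Tmem119 lies right of 0, while Csf1 lies right of 0 with miR-7a (0.64) and left of 0 with the others.

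The number of the 8 genes called differed between mimics, as did the number of all genes called. With scramble 2 were called (Csf1r and Spi1), against 17.9% of all genes, a count that was 4 under DESeq2 and 1 to 4 with a library left out. With miR-29a 5 were called (Csf1r, Csf1, P2ry6, Spi1 and Runx1), against 26.4%, and 3 to 5 with a library left out. With miR-7a 2 were called (Csf1 and Tmem119), against 6.27% of all genes, but this count was 0 or 1 in each of the 8 fits that left out a library, 0 without VEH_miR-7a replicates 2, 3 and 4, and 7 with the replicate block, in a comparison that failed the pairing check. With miR-146a limma voom and edgeR called 0 and DESeq2 called 1, with 4 at an unadjusted p under 0.05, against 4.47% of all genes. LPS_miR-29a and VEH_miR-29a are a comparison in which same-numbered libraries deviated together, and with the replicate number as a block the count stayed at 5, against 37.3% of all genes.

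Csf1, the ligand, moved in opposite directions with different mimics. LPS_scramble held 373, 374, 387 and 366 CPM of Csf1, the narrowest spread of its 8 groups (375 ± 8.85, SD, n = 4). LPS_miR-7a held 467, 627, 659 and 687 CPM (610 ± 98.6). Every LPS_miR-7a library lay above every LPS_scramble library, and the log2 fold change was 0.69 (SE 0.13, adjusted p = 0.0234), 1.62 times higher with miR-7a. The call was lost when any of LPS_scramble replicates 1 to 4 or LPS_miR-7a replicates 2 or 3 was left out, with adjusted p between 0.00497 and 0.0947 over the 8 fits. The only seed match of miR-7a among the 9 genes lies in this gene, in the transcript shown above.

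Against its own vehicle group Csf1 also rose with miR-7a. VEH_miR-7a held 410, 308, 370 and 454 CPM, all below the 4 LPS_miR-7a libraries. The fold change was 0.64 on the log2 scale (SE 0.16, adjusted p = 0.0358). Without VEH_miR-7a replicates 2, 3 and 4 it was 0.56 (adjusted p = 0.463). The call was also lost without any of VEH_miR-7a replicates 1, 2 or 3 or LPS_miR-7a replicates 2, 3 or 4 (adjusted p from 0.0085 to 0.107 over the 8 fits). With miR-29a Csf1 fell under LPS (-0.51, SE 0.15, adjusted p = 0.0236), from 385, 399, 510 and 550 CPM to 346, 344, 292 and 300 CPM, without overlap. The call was lost without VEH_miR-29a replicate 3 or 4 or LPS_miR-29a replicate 3 or 4 (adjusted p up to 0.075).

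With scramble Csf1 was lower in every LPS library than in any vehicle library, at -0.33 (SE 0.13, adjusted p = 0.0983), a difference that DESeq2 called (adjusted p = 0.0279) and edgeR did not. With miR-146a the change was -0.37 (SE 0.16, adjusted p = 0.254). The difference between the LPS change with miR-7a and that with scramble was 0.98 (95% confidence interval 0.57 to 1.39, adjusted p = 0.139) and was not called by limma voom or edgeR. DESeq2 called it (adjusted p = 0.0019), and the limma voom p ran from 0.0173 to 0.392 with each of the 16 libraries left out in turn, the call being made without VEH_miR-7a replicate 1 or LPS_miR-7a replicate 1. Without VEH_miR-7a replicates 2, 3 and 4 the difference was 0.89 (adjusted p = 1.00). In that test 1 gene of all was called by limma voom (0.00862%), and 2 of the 8 genes, Csf1 and P2ry12, had an unadjusted p under 0.05. The interactions of miR-29a and of miR-146a gave 0 calls of the 8 genes by limma voom, edgeR and DESeq2, against 0.0171% and 0.00% of all genes, with 2 (Runx1 and Csf1r) and 0 at an unadjusted p under 0.05.

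The Csf1 to Csf1r ratio, taken within each library from counts per kilobase and so free of library scaling, summarised both genes. It was computed after the levels had been seen and is given without a test. In VEH_scramble it was 0.542, 0.549, 0.640 and 0.644, and in LPS_scramble 0.737, 0.661, 0.769 and 0.730. In LPS_miR-7a it was 1.52, 1.45, 1.84 and 1.64, above every other library of the series. In LPS_miR-29a it was 0.985, 0.931, 1.01 and 1.14, with a mean of 1.02 ± 0.09 (SD, n = 4), and in LPS_miR-146a 0.58, 0.607, 0.619 and 0.939. Per kilobase of all annotated exons, ligand transcript thus exceeded receptor transcript in all 4 LPS_miR-7a libraries and in 2 LPS_miR-29a libraries. Without the lengths all 4 LPS_miR-7a libraries and LPS_miR-29a replicate 4 kept this order. LPS_miR-29a replicate 3 did not, with 5297 counts of Csf1 against 5712 of Csf1r.

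**Figure D3:**
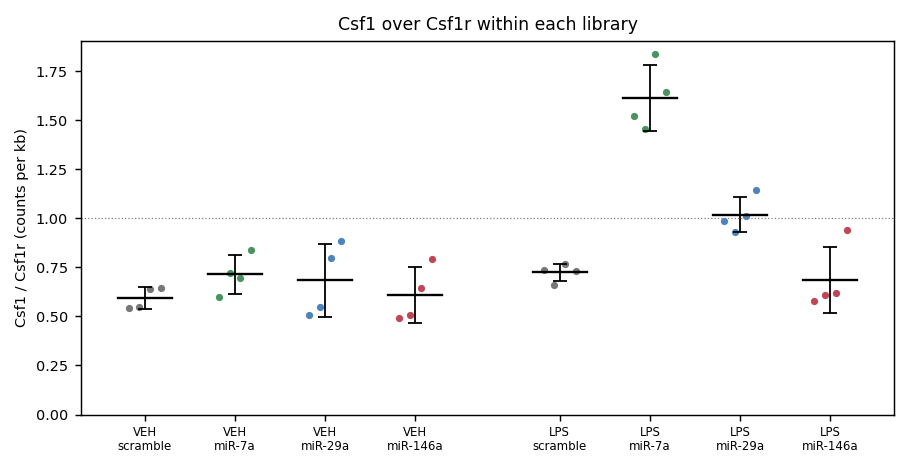
Ratio of Csf1 to Csf1r counts per kilobase within each library (points) of the 8 groups, with the mean (line) and SD (bar), and a dotted line at a ratio of 1. The 4 LPS_miR-7a libraries lie between 1.45 and 1.84, and the VEH groups have means of 0.594 to 0.714.

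Under LPS the mimics were compared with the same 4 LPS_scramble libraries, so these comparisons are not independent. Csf1r was lower in LPS_miR-29a, at 287 to 404 CPM against the 548 to 618 CPM of LPS_scramble. The log2 fold change was -0.70 (SE 0.13, adjusted p = 0.0146), with no overlap between the groups, and the call held when each of the 8 libraries was left out in turn (adjusted p at most 0.0481). It was the only one of the 8 genes called, against 4.60% of all genes. Csf1r holds no miR-29a seed match in its annotated 3′ UTRs.

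LPS_miR-29a and LPS_scramble are paired by the same check, and with the replicate block Spi1 was called too (-0.40, adjusted p = 0.0464), as were 10.3% of all genes. Spi1 held 80.0, 69.9, 86.0 and 97.2 CPM in LPS_miR-29a and 97.4, 84.5, 154 and 114 CPM in LPS_scramble. Each LPS_miR-29a library was below the LPS_scramble library of the same number, while the group ranges overlapped. Without the block the adjusted p was 0.229.

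LPS_miR-7a gave 1 call of 8 by limma voom and by edgeR, Csf1, against 2.72% of all genes, and 0 to 2 with a library left out. DESeq2 called 3, adding Csf1r (adjusted p = 0.029) and Aif1 (adjusted p = 0.00734). Csf1r was lower in all 4 LPS_miR-7a libraries than in any LPS_scramble library, at -0.46 (SE 0.13, adjusted p = 0.0882). Aif1 held 25.7, 16.5, 25.6 and 13.1 CPM in LPS_miR-7a against 12.9, 8.55, 12.4 and 9.08 CPM in LPS_scramble, without overlap, at 0.93 (SE 0.24, adjusted p = 0.0662). These libraries also pass the pairing check. With the replicate block 3 of the 8 genes were called, against 9.13% of all genes: Csf1 (0.70, adjusted p = 0.000819), Csf1r (-0.46, adjusted p = 0.00665) and Aif1 (0.87, adjusted p = 0.00319).

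LPS_miR-146a gave 0 calls of 8 by limma voom, edgeR and DESeq2, with 0 at an unadjusted p under 0.05, against 2.36% of all genes. Its Csf1r difference from LPS_scramble was 0.13 with a 95% confidence interval of -0.20 to 0.46, and that of Csf1 was 0.03 (-0.19 to 0.26). Runx1, which holds a miR-146a match, differed by -0.02 (-0.40 to 0.35).

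**Figure D4:**
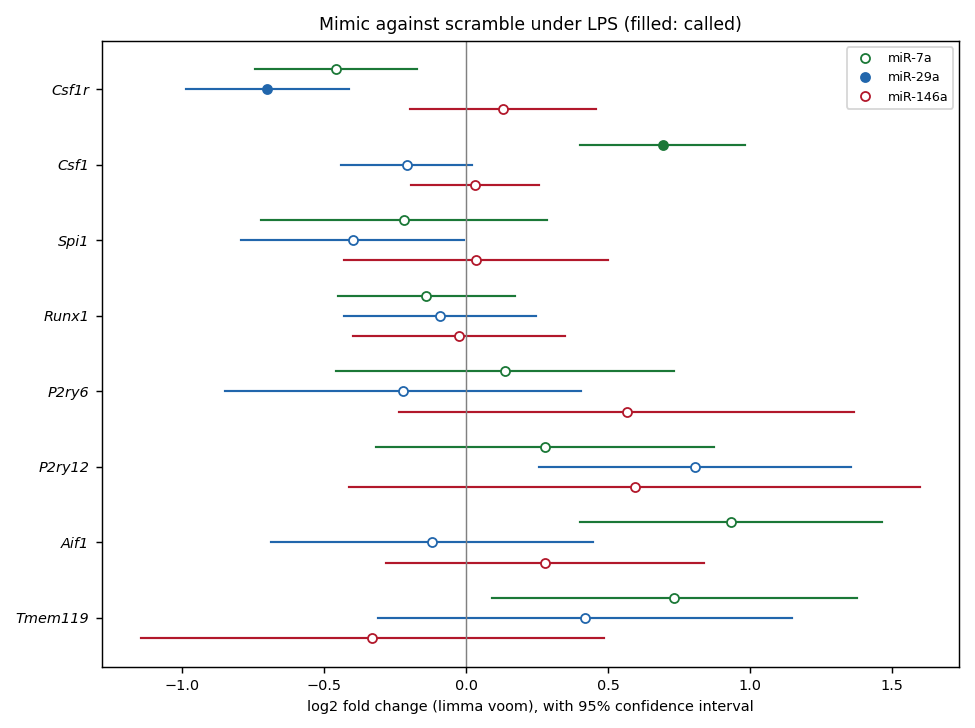
Log2 fold change of each mimic against scramble under LPS for 8 genes (vertical axis), with 95% confidence intervals, filled where called. Csf1 with miR-7a (0.69) and Csf1r with miR-29a (-0.70) are the filled points.

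Under vehicle none of the genes tested was called with any mimic by limma voom, edgeR or DESeq2. For miR-7a this was 0 of 7 genes against 0.0464% of all genes, with 2 at an unadjusted p under 0.05, Csf1r (-0.55, adjusted p = 0.261) and P2ry12 (1.26, adjusted p = 0.226). Without VEH_miR-7a replicates 2, 3 and 4 these were -0.22 and 1.10, with VEH_miR-7a replicate 1 as the only library of its group. All 4 VEH_miR-7a libraries held more P2ry12 (6.95, 8.88, 7.73 and 8.78 CPM) than any VEH_scramble library (4.38, 2.30, 4.99 and 2.29 CPM), but VEH_miR-7a replicates 2 and 4 rest on 11 and 7 counts. For miR-29a it was 0 of 8 against 0.00887% of all genes, with 1 at an unadjusted p under 0.05, Runx1 (0.37, adjusted p = 0.444), which holds a miR-29a match and was higher in all 4 VEH_miR-29a libraries. For miR-146a it was 0 of 7 against 1.81%, with 0 at an unadjusted p under 0.05.

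The transcription factors Spi1 and Runx1 both fell over the mean of the mimics. Over the 16 vehicle libraries Spi1 ran from 107 to 244 CPM with a median of 150, and over the 16 LPS libraries from 65.2 to 159 with a median of 97.3. These ranges overlapped. The fall of Spi1 passed with scramble (-0.75, SE 0.22, adjusted p = 0.0366) and with miR-29a (-0.82, SE 0.15, adjusted p = 0.00196). With scramble it was lost when any of VEH_scramble replicates 2, 3 or 4 or LPS_scramble replicates 1, 2 or 4 was left out (adjusted p up to 0.101).

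Runx1 moved less, from 58.6 to 97.6 CPM (median 74.7) under vehicle to 45.4 to 80.5 CPM (median 55.5) under LPS. Of the single mimics it passed with miR-29a (-0.55, SE 0.15, adjusted p = 0.0198), where VEH_miR-29a held 76.7, 83.2, 95.5 and 74.7 CPM and LPS_miR-29a held 55.8, 51.4, 70.3 and 47.5 CPM. That call was lost without VEH_miR-29a replicate 3 or LPS_miR-29a replicate 4. With scramble the change was -0.09 (SE 0.15, adjusted p = 0.723).

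P2ry6 fell over the mean of the mimics, from a range of 3.76 to 14.1 CPM (median 9.49) over the 16 vehicle libraries to 2.90 to 10.7 CPM (median 4.83) over the 16 LPS libraries. With miR-29a it held 12.7, 9.45, 9.96 and 7.46 CPM under vehicle and 5.49, 3.52, 3.75 and 4.23 CPM under LPS. The groups did not overlap and the fold change was -1.22 (SE 0.24, adjusted p = 0.00308). With scramble it was -0.90 (SE 0.30, adjusted p = 0.0573), which passed under DESeq2 (adjusted p = 0.0397), with the replicate block (0.0446), in 1 fit over all 32 libraries (0.0243) and at a certainty of 0.99, and not under edgeR. The related ADP receptor P2ry12 was called in none of the 14 comparisons.

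Tmem119 went the other way and rose under LPS, at low counts. Over the 16 vehicle libraries it ran from 0 to 3.57 CPM (median 1.57) and over the 16 LPS libraries from 1.85 to 7.18 CPM (median 3.89). With miR-7a it passed (2.49, SE 0.60, adjusted p = 0.03), from 1.43, 2.42, 0 and 0 CPM to 5.90, 6.00, 7.18 and 4.15 CPM. With counts of 8, 3, 0 and 0 in VEH_miR-7a, Tmem119 entered this test through the LPS libraries, where it is high, and it failed the filter in VEH_miR-7a against VEH_scramble, so the call is not support for a change. The libraries at 0 are VEH_miR-7a replicates 3 and 4, whose TMM-scaled depth allows up to 1.78 and 3.76 CPM at a count of 0, for counting error only, and the second of these limits lies close to the 4.15 CPM of LPS_miR-7a replicate 4. Without replicates 2, 3 and 4 of that group the value was 1.93 (adjusted p = 0.328), and the call was lost without any of VEH_miR-7a replicates 1, 3 or 4 or LPS_miR-7a replicates 1, 2 or 3 (adjusted p up to 0.0931). With scramble, miR-29a and miR-146a Tmem119 was higher under LPS (1.125, 0.858 and 1.435) but was not called by limma voom (adjusted p = 0.0862, 0.0908 and 0.1745). Of these changes edgeR called that with miR-29a. Over the mean of the mimics Tmem119 stayed called in every alternative and with each library left out (adjusted p at most 0.00207).

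Aif1 had its highest level in LPS_miR-7a (20.2 ± 6.38 CPM, SD, n = 4) and 7.76 ± 3.11 to 12.5 ± 4.13 CPM in the other 7 groups. Cx3cr1 was near the floor of detection, with 0 counts in 5 libraries and at most 15 counts in any. It failed the filter on low counts in all 14 comparisons and no difference was detectable at this depth. Its ligand gene Cx3cl1 was at or below 0.528 CPM in all libraries.

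**Figure D5:**
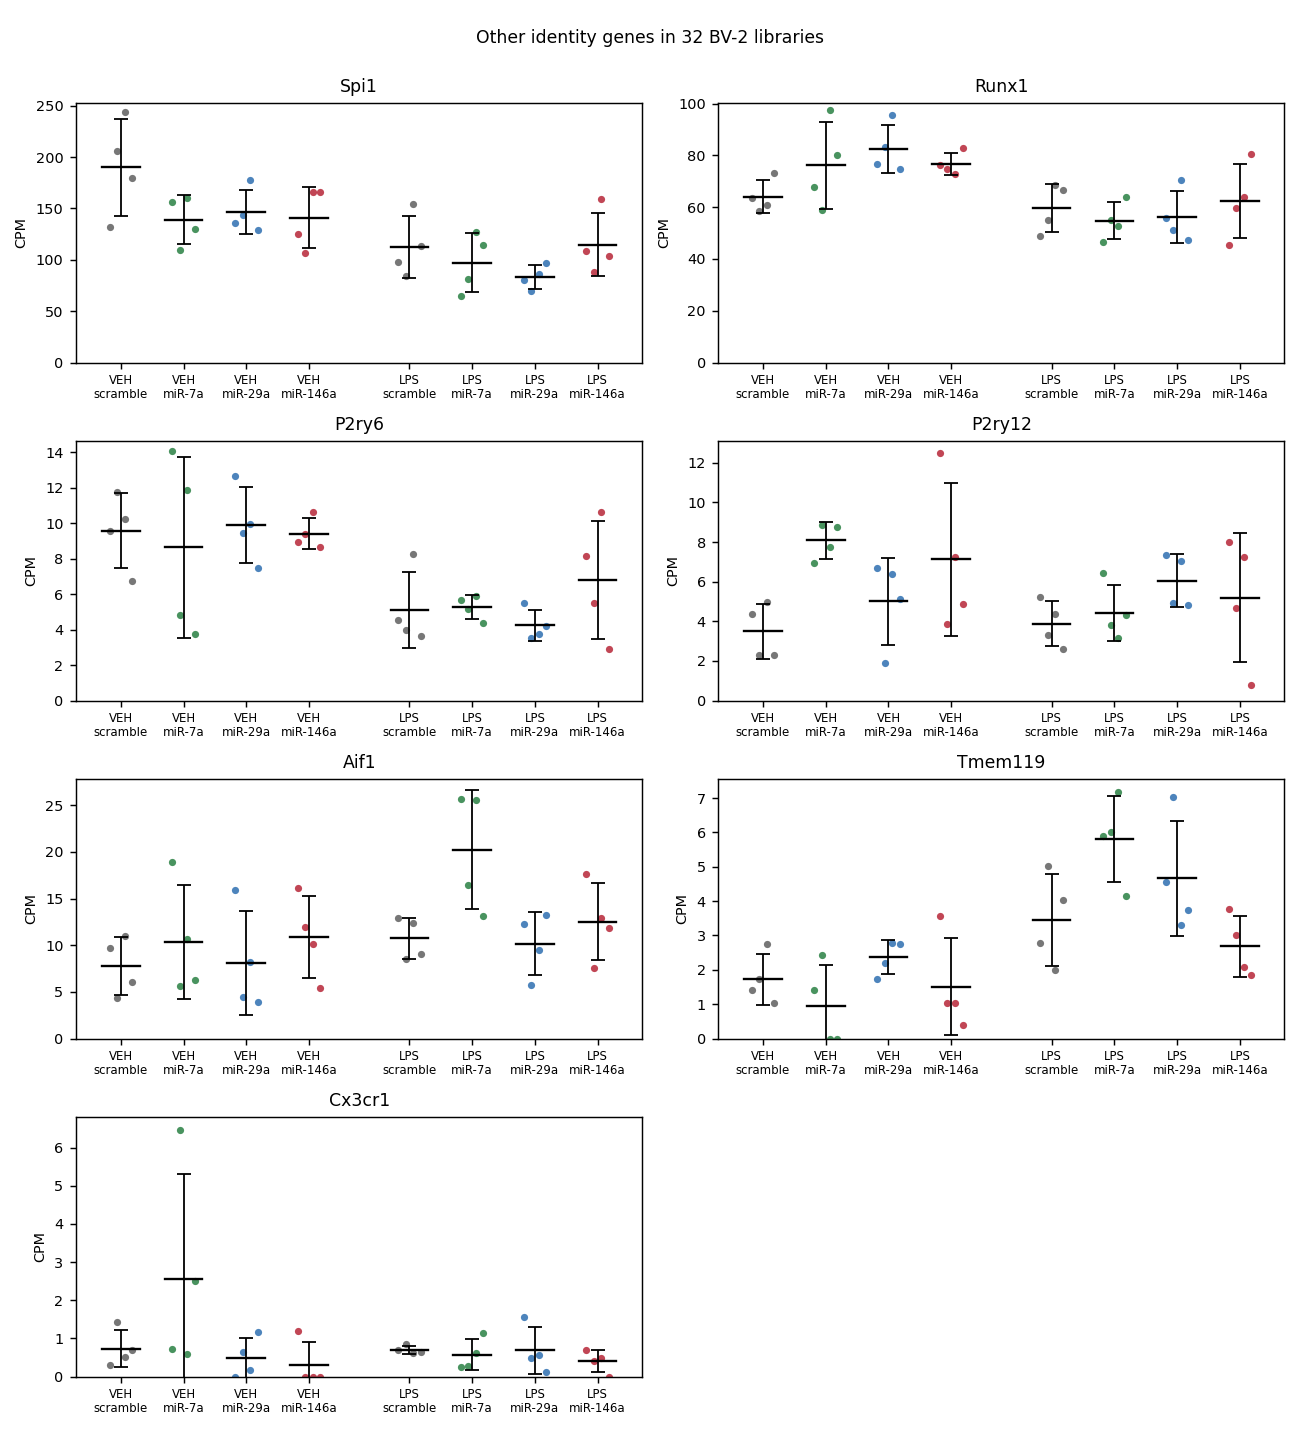
Level in CPM of the other 7 genes in each of the 4 libraries (points) of the 8 groups, with the mean (line) and the SD (bar, cut at 0). Spi1 and P2ry6 sit lower in the LPS groups, Tmem119 sits higher, and Cx3cr1 stays below 2 CPM outside VEH_miR-7a.

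For Csf1r the order of the 8 group means, from high to low, ran VEH_miR-146a (896 CPM), VEH_scramble (883), VEH_miR-29a (752), LPS_miR-146a (631), VEH_miR-7a (598), LPS_scramble (567), LPS_miR-7a (414) and LPS_miR-29a (348). Of these neighbours LPS_scramble and LPS_miR-7a alone had ranges that did not overlap. For Csf1 the order ran LPS_miR-7a (610 CPM), VEH_miR-146a (500), VEH_scramble (476), VEH_miR-29a (461), VEH_miR-7a (386), LPS_miR-146a (382), LPS_scramble (375) and LPS_miR-29a (321), and the last pair alone did not overlap. For the other 7 genes the ranges of all neighbouring groups overlapped. On plain library totals, without TMM scaling, 8 of the 9 genes kept their highest group and 7 their lowest, but Tmem119 alone kept its whole order. VEH_miR-7a then had the lowest Csf1 mean (301 CPM) and lay below LPS_scramble in Csf1r (479 against 610 CPM).

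Across the 32 libraries log2 CPM of Csf1r followed P2ry6 (Pearson's r = 0.713) and Spi1 (r = 0.68), and P2ry6 followed Spi1 (r = 0.695). Csf1r and its ligand Csf1 were only loosely related (r = 0.305). Tmem119 ran against Runx1 (r = -0.631). Among 8468 genes with a mean log2 CPM of at least 3, those most like Csf1r were Colgalt1 (r = 0.938), Sirpa (r = 0.934) and Man2b1 (r = 0.93). Those most like Spi1 were Tmem159 (r = 0.897), Akt1 (r = 0.889) and Pfn1 (r = 0.873), and those most like Csf1 were Clcn7 (r = 0.751), Ecm1 (r = 0.748) and Gpnmb (r = 0.732). For Tmem119 they were Stim2, Zfp503 and Ofd1 (r = 0.813 to 0.852), for P2ry6 Wdr1, Nlrp1c-ps and Arhgap9 (r = 0.808 to 0.835), for Aif1 Tfrc, Ms4a6d and Chmp4b (r = 0.749 to 0.808), for Runx1 Raph1, Cish and P2ry1 (r = 0.736 to 0.787) and for P2ry12 Kdm6a, Ctps2 and Rel (r = 0.748 to 0.765). The points share the LPS treatment, the depth and the composition of their libraries, so these values describe the libraries and carry no test.

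The pathway around the receptor was described with lists of genes related to the 9. The list of the Csf1 receptor axis has 21 genes, among them Csf2, Csf2ra, Csf2rb, Csf2rb2 and Csf3r, which serve other cytokines. Of these 21 genes 17 were tested over the mean of the mimics, at a median log2 fold change of -0.20. Among those tested 2 rose and 6 fell. Over all genes 33.8% were called in that comparison and the median was -0.00013. Tyrobp, the adaptor of Trem2 that also signals beside Csf1r, fell from a mean of 534 to 266 CPM (-0.99, adjusted p = 2.68e-10), and Dok2, an adaptor that dampens tyrosine kinase signals, fell from 10.7 to 4.42 CPM (-1.31, adjusted p = 1.54e-07). Lyn, a Src-family kinase, rose from 65.9 to 92.9 CPM (0.48, adjusted p = 1.08e-06). Il34, the other ligand of the receptor, stayed at or below 0.596 CPM in all libraries.

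Under LPS 3 of 18 tested genes of this list were lower in LPS_miR-29a than in LPS_scramble and none was higher, at a median of -0.20, against 4.60% of all genes called. Grb2, the adaptor that links the receptor to Ras, held 88.5 ± 11.8 CPM against 175 ± 15.8 (SD, n = 4 each; -0.97, adjusted p = 0.00403). Tyrobp held 193 ± 35.2 against 288 ± 23.2 CPM (-0.57, adjusted p = 0.0433). Csf2rb2, a receptor gene of another cytokine, held 79.2 ± 16.2 against 126 ± 23.9 CPM (-0.67, adjusted p = 0.0452). With miR-7a and with miR-146a under LPS none of the 17 and 18 tested genes of the list was called by limma voom, against 2.72% and 2.36% of all genes.

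Of 20 homeostatic microglial genes 14 were tested over the mean of the mimics, of which 8 fell and 1 rose, at a median log2 fold change of -0.53 and against 33.8% of all genes called. Trem2, a lipid-sensing receptor, fell from a mean of 333 to 140 CPM (-1.23, adjusted p = 3.73e-13), Cst3, which encodes cystatin C, from 855 to 423 CPM (-1.02, adjusted p = 1.24e-12) and Rgs10 from 101 to 53.0 CPM (-0.89, adjusted p = 1.48e-10). Sall1, Siglech, Gas6, Crybb1 and Sparc had medians of 0 CPM. In LPS_miR-29a Gpr34 was lower than in LPS_scramble, at 1.40 ± 0.05 against 4.05 ± 0.65 CPM (-1.49, adjusted p = 0.0101).

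Of 18 myeloid transcription factors 16 were tested over the mean of the mimics, of which 2 rose and 4 fell, at a median of -0.03, a share close to the 33.8% of all genes called. Egr2 (-1.79, adjusted p = 2.77e-14), Cebpa (-0.87, adjusted p = 4.96e-07) and Maf (-0.60, adjusted p = 9.75e-07) fell, while Cebpb, a factor of inflammatory gene expression, rose (0.71, adjusted p = 5.80e-07). Cbfb, the partner subunit of Runx1, was higher in LPS_miR-29a than in LPS_scramble (84.4 ± 12.1 against 57.6 ± 4.96 CPM, SD, n = 4 each; 0.58, adjusted p = 0.0303). Maf was higher with miR-146a than with scramble under vehicle (0.97, adjusted p = 0.0341) and under LPS (0.94, adjusted p = 0.0187).

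Of 15 purinergic genes 9 were tested over the mean of the mimics, of which 2 fell and none rose, a share below the 33.8% of all genes called. The ADP receptor P2ry1 fell from a mean of 115 to 62.2 CPM (-0.87, adjusted p = 7.31e-10) and Entpd1, the enzyme CD39 that breaks down extracellular ATP, from 144 to 108 CPM (-0.46, adjusted p = 1.23e-06). Under LPS Entpd1 was higher with miR-7a (133 ± 3.55 CPM) and with miR-146a (144 ± 21.5 CPM) than with scramble (91.5 ± 7.48 CPM) and lower with miR-29a (64.6 ± 5.32 CPM; SD, n = 4 each; 0.55, 0.68 and -0.48, adjusted p = 0.0251, 0.0219 and 0.0386).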

How the data were processed

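RNA of 32 BV-2 libraries was depleted of ribosomal RNA, made into total RNA libraries and counted per gene by the authors with the nf-core rnaseq workflow on GRCm38. The deposited values are estimated counts per gene that had lost their decimal marks. The submitters' processing notes name limma and edgeR. From these values the marks were restored by weighing the last digits, the gene's share of fractional values and its level in the other libraries. Of 590874 values above 0, 28.4% were restored and 1.26% had a posterior under 0.9. Genes with such a value were left out of that comparison. The restoration and the tests were checked on simulated data.

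Each comparison was fitted by limma voom 3.58.1 in R 4.3.3 on the libraries of its groups, after filterByExpr and TMM scaling (edgeR 4.0.16), with Benjamini-Hochberg adjustment over all genes tested. DESeq2 1.42.0 and edgeR's quasi-likelihood test were alternatives on restored values rounded to whole numbers. Other alternatives were no filter, DESeq2 size factors, 1 fit over all libraries, a replicate block, other treatments of the restored marks, structural RNA genes left out and each library left out. A fit without VEH_miR-7a replicates 2, 3 and 4 was added after seeing the data.

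The labels number the replicates 1 to 4 in each group. Same-numbered libraries deviated together, with every correlation over 0.1, in LPS_miR-7a with LPS_scramble (0.197 to 0.372), LPS_miR-29a with LPS_scramble (0.238 to 0.377) and LPS_miR-29a with VEH_miR-29a (0.137 to 0.246). In the other pairwise comparisons the lowest correlation was under 0.1, which fails this pairing check. Even there, libraries correlated best with their own number in 5 of 8 checks (VEH_miR-146a with VEH_scramble) to 8 of 8 (LPS_miR-146a with VEH_miR-146a). The main fits leave the pairing out. The genes and the lists were chosen with earlier results of these data known. Of each list at most the 4 called genes with the smallest adjusted p were named per comparison, and at most 3 genes most like each gene. Some genes that this rule names are not reported here. Counting intervals and floors (3 counts) cover counting error only.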

Additional observations from a re-analysis of the deposited data

Results flagged for a closer look

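Of 72 sets of 4 libraries tested, 9 genes in 8 groups, 2 held a library set apart from the other 3 beyond the critical value of Dixon's test, and chance gives about 1 in 20. Csf1r in LPS_scramble replicate 2 stood at 618 CPM against 548 to 554 CPM in the other 3, and it is still below all VEH_scramble libraries. Without this library the LPS change of Csf1r with scramble and its difference between LPS_miR-29a and LPS_scramble kept their calls. Cx3cr1 in VEH_miR-146a replicate 1 stood at 1.19 CPM, which is 2 counts, against 0 in the other 3. With 3 libraries at 0 any count in the remaining library gives this flag, so nothing is concluded from it.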

How the results depend on the processing

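Counts of called genes moved by over 1.5 times as follows. LPS_miR-7a against LPS_scramble went from 1 to 2 with no filter and to 3 under DESeq2 and under the replicate block. LPS_miR-29a against LPS_scramble went from 1 to 2 under the block, and LPS_scramble against VEH_scramble from 2 to 4 under DESeq2. LPS_miR-7a against VEH_miR-7a went from 2 to 1 under edgeR and with decimal marks set by level alone, to 7 under the block, and to 0 without VEH_miR-7a replicates 2, 3 and 4. LPS_miR-146a against VEH_miR-146a went from 0 to 1 with no filter, under DESeq2, in 1 fit over all 32 libraries, under the block and at a certainty of 0.99. The miR-7a interaction went from 0 to 1 under DESeq2 and under the block (adjusted p = 0.0372). In comparisons that fail the pairing check the block rests on weaker correlations between same-numbered libraries. With plain totals the number of neighbouring groups without overlap went from 2 to 0. Smaller moves were LPS with scramble from 2 to 3 (1 fit, block, certainty 0.99), LPS with miR-7a from 2 to 3 (no filter, DESeq2, 1 fit, certainty 0.99), LPS with miR-29a from 5 to 4 (no filter, where Runx1 had an adjusted p of 0.0577) and to 6 (edgeR), and the mean over mimics from 6 to 5 (DESeq2 size factors, edgeR, uncertain values kept, without VEH_miR-7a replicates 2, 3 and 4). With each library left out, counts ran from 0 to 2, 1 to 1, 1 to 4, 0 to 1, 3 to 5, 5 to 6 and 0 to 1 for LPS_miR-7a and LPS_miR-29a against LPS_scramble, LPS with scramble, miR-7a and miR-29a, the mean over mimics and the miR-7a interaction, and stayed at 0 in the other 7. The cause of these moves was not tested.

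Of 2385 values for single genes under an alternative, 13 changed sign under other settings and 60, in 27 differences, with a library left out, and none of these was called on either side. Among the differences given above they were Runx1 in LPS_miR-146a against LPS_scramble (0.056 under edgeR, 0.061 under DESeq2, 0.063 under the block, -0.12 to 0.13 with a library left out), Csf1 in the same comparison (-0.0047 to 0.10) and Tmem119 in LPS_miR-29a against VEH_miR-29a (-0.18 with decimal marks set by level alone). Of the values under other settings 1073 kept sign and call, 9 lost a call and 28 gained one, and with a library left out 1148 kept both, 48 lost a call and 6 gained one. The shallow VEH_miR-7a libraries limit what can be seen of the low genes Cx3cr1, Tmem119, P2ry12 and P2ry6.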
